A study of Mus musculus with 32 samples.

Results

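Whole-cortex RNA of socially isolated mice that were treated with fluoxetine and behaved normally (Sh + Flx) was compared with that of socially isolated mice on vehicle (Sh). The comparison used the input libraries labelled as fluoxetine-treated, single-housed and of normal behavior, replicates 1 to 4, against the input libraries labelled as vehicle-treated and single-housed, replicates 1 to 4. These are 8 of the 32 libraries of the series, which also holds input libraries of isolated fluoxetine-treated mice labelled anxious (Sh + Flx anxious) and of group-housed mice on vehicle (Gh), and libraries of the mRNA bound to tagged ribosomes (TRAP) for each group. Fluoxetine, a selective serotonin reuptake inhibitor, was given at 0.167 g/L in the drinking water for 21 days. Every group, the controls included, carried the transgene Tg(S100a10-EGFP/Rpl10a)ES691Htz, in which regulatory elements of S100a10 drive a ribosomal protein fused to EGFP. The mice were males, isolated from weaning into adulthood, and the open field sorted the treated ones into normal and anxious by how they divided their time between center and periphery. Each library was made from the cortices of 3 mice, pooled after the hippocampi and striata had been removed. Input RNA is the total RNA of that homogenate before purification. The behavior label reads normal for Sh + Flx, Sh and Gh. The cell type label names layer 5a S100a10 neurons for every library, while the source label of the input libraries names whole cortex. The input libraries held markers of all major cortical cell types and S100a10 at 5.51, 7.32, 7.74 and 8.14 CPM (counts scaled to the total of each library) in Sh + Flx and 7.18, 5.82, 7.70 and 5.46 CPM in Sh, and they are described here as whole cortex.

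Serotonin reuptake inhibitors block the serotonin transporter, which sits on the terminals of raphe neurons, and their effect on mood builds up over weeks of treatment. Over that time, cortical neurons are known to adjust genes that respond to calcium and cAMP, among them immediate-early transcription factors and secreted or synaptic effectors such as Bdnf. Cortical tissue mixes projection neurons, interneurons, astrocytes, oligodendrocytes, microglia, vessels and remnants of the meninges, so that in bulk RNA fewer cells of a type and less RNA per cell cannot be told apart.

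The 4 Sh + Flx libraries held 23403561 to 32636948 counts in genes (median 25482727) and the 4 Sh libraries 19265435 to 29303133 (median 24938495). Within each of the 4 input groups, replicates 1 and 4 resembled each other, as did replicates 2 and 3, more than other pairs of the group did (mean chi-square of their counts per gene, which sampling noise alone puts near 1, of 5.29 between Sh + Flx 1 and 4 and 5.44 between 2 and 3, against 13.5 to 16.1 for the other pairs; 7.55 and 5.96 in Sh, against 11.3 to 11.96). No pair differed by as little as sampling noise. The libraries are described as biological replicates, and whether each is a pool of its own could not be settled from the files, so that p-values measure the spread between libraries. Results are given also within each pair (2 libraries against 2) and with the paired libraries summed (2 samples against 2). The fits within a pair kept all 8 input libraries of Sh + Flx anxious and Gh, which enter the estimate of the spread. If the libraries of a pair were repeats of 1 pool, such a fit would set 1 pool against 1. Its p would then not measure the spread between pools, so that passing within both pairs does not settle this question. Sh replicates 1 and 4 held 2378 and 1708 counts of growth hormone, against at most 15 in every other library of the comparison, and 846 and 677 counts of prolactin, against at most 6. Cldn5 of endothelial cells, C1qa of microglia and the hemoglobin gene Hbb-bs had at most 10 counts in each of the 8 libraries.

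Of 15690 genes tested, 286 (1.82%) were higher and 125 (0.797%) were lower in Sh + Flx than in Sh at an adjusted p under 0.05 (edgeR's quasi-likelihood test with Benjamini-Hochberg adjustment, fitted on all 16 input libraries). Most changes were small. The median log2 fold change was 0.37 among the higher and -0.35 among the lower genes, 73 higher and 20 lower genes changed at least 1.5-fold, and 26 and 3 changed at least 2-fold. The libraries of the groups did not overlap in CPM for 273 of the higher and 115 of the lower genes, against 9.48% of all genes tested. The median over all genes was -0.0035. With the paired libraries summed, 55 genes were higher and 4 were lower, all of them among the 286 and 125. With only replicates 1 and 4 of Sh + Flx and Sh, beside the other input groups, 83 and 32 genes passed. With only replicates 2 and 3 it was 61 and 10, and 30 higher and 4 lower genes passed within both pairs. Without Sh replicates 1 and 4, which held the pituitary hormones, 141 genes were higher and 60 lower. The plot of all genes shows the few genes that stood clear of the rest. The 15 higher and 14 of the 15 lower genes with the smallest p are described with the gene lists they belong to. These genes were taken only from those whose libraries did not overlap, so that the lack of overlap is a condition of their choice.

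**Figure D1:**
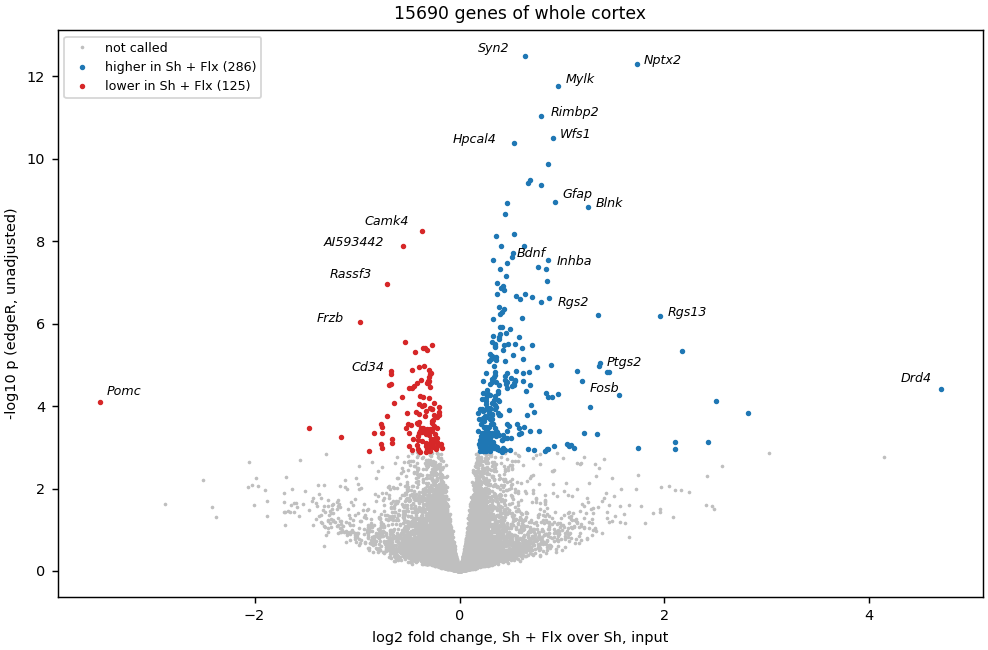
Each point is 1 of 15690 genes, with its log2 fold change of Sh + Flx over Sh in whole-cortex input on the x axis and the negative log10 of edgeR's unadjusted p on the y axis; blue genes were higher (286), red genes lower (125) and gray genes not called. Syn2 and Nptx2 have the smallest p, and Pomc and Drd4, both of few counts in most libraries, are the called genes farthest to the left and right.

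The gene with the smallest p encodes a presynaptic protein. Syn2, which encodes synapsin II on synaptic vesicles (chromosome 6, 115134902 to 115282626 of GRCm38), stood at 432, 439, 418 and 445 CPM in Sh + Flx, against 282, 288, 282 and 263 CPM in Sh. All 4 Sh + Flx libraries lay above all Sh libraries by far more than their spread (log2 fold change 0.64, standard error 0.049, adjusted p = 3.99e-09). Rimbp2, a scaffold of the active zone that links calcium channels to release sites, had 70.7, 74.7, 78.1 and 82.2 CPM in Sh + Flx, against 45.2, 43.1, 46.6 and 40.8 CPM in Sh (log2 fold change 0.80, standard error 0.071, adjusted p = 3.54e-08). Amph, which encodes amphiphysin, a protein of vesicle endocytosis, was measured at 187, 185, 178 and 188 CPM in Sh + Flx, against 137, 136, 136 and 134 CPM in Sh (log2 fold change 0.44, standard error 0.051, adjusted p = 2.5e-06). Among 25 genes of synaptic vesicles and SNARE proteins, 5 rose and none fell, against 1.82% and 0.797% of all genes tested. Besides Syn2, these were Slc17a7, the vesicular glutamate transporter of cortical pyramidal neurons (log2 fold change 0.35, adjusted p = 0.00233), Sv2c (log2 fold change 0.31, adjusted p = 0.0256), Syn3 (log2 fold change 0.22, adjusted p = 0.0284) and Sv2b (log2 fold change 0.20, adjusted p = 0.0415). The median of the list was -0.02, near that of all genes, and the other 20 members did not pass. Sv2c, Syn3 and Sv2b lost the call when 1 library was left out (7, 6 and 5 of 8 such fits, with adjusted p up to 0.11, 0.117 and 0.187), whereas Syn2 and Slc17a7 kept it in all 8. Exons of Syn3, Sv2b and Rimbp2 overlap another gene on the opposite strand, and the library kit does not mark strand.

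Nptx2 had the largest fold change of the 15 higher genes with the smallest p. It encodes neuronal pentraxin 2, a secreted protein that excitatory neurons release with activity and that gathers AMPA receptors at synapses. Nptx2 (chromosome 5, 144545887 to 144557478) stood at 35.1, 35.5, 39.3 and 31.9 CPM in Sh + Flx, against 9.60, 9.38, 11.4 and 12.6 CPM in Sh. Every Sh + Flx library held more than 2 times the highest Sh library (log2 fold change 1.73, standard error 0.14, adjusted p = 3.99e-09), and the change was 1.60 (adjusted p = 0.000106) within replicates 1 and 4 and 1.84 (adjusted p = 1.42e-05) within replicates 2 and 3. It is one of 38 activity-regulated effector genes tested, of which 11 rose and none fell, against 1.82% and 0.797% of all genes tested. The list median was 0.18, against -0.0035 for all genes.

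Bdnf, the neurotrophin most studied in antidepressant action, was measured at 53.3, 47.6, 49.6 and 49.6 CPM in Sh + Flx, against 30.7, 29.1, 29.7 and 28.1 CPM in Sh. The groups did not overlap (log2 fold change 0.77, standard error 0.10, adjusted p = 2.49e-05), and the call held within both pairs of libraries. Inhba, which encodes the subunit of activin A, had 68.4, 58.3, 67.7 and 68.1 CPM in Sh + Flx, against 33.9, 37.4, 34.9 and 38.1 CPM in Sh (log2 fold change 0.86, standard error 0.11, adjusted p = 1.84e-05). Nrn1, which encodes neuritin, a surface protein that promotes neurite growth, was at 268, 276, 270.3 and 264 CPM in Sh + Flx, against 201, 216, 198 and 205 CPM in Sh. This smaller change was as regular across libraries (log2 fold change 0.40, standard error 0.053, adjusted p = 2.66e-05). Nptx1, the neuronal pentraxin related to Nptx2, rose by 0.41 on the log2 scale (adjusted p = 0.00018). The other members that rose were Grasp, a scaffold of metabotropic glutamate receptors (log2 fold change 0.62, adjusted p = 0.00135), Lonrf3 (log2 fold change 0.44, adjusted p = 0.00269), Peg10 (log2 fold change 0.46, adjusted p = 0.00233) and Vgf (log2 fold change 0.42, adjusted p = 0.0488), the precursor of neuroendocrine peptides. Vgf lost the call in each of the 8 fits that left out 1 library (adjusted p 0.0776 to 0.143), and the other 10 members kept it in all 8.

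For Rgs2 and Ptgs2 the size of the change followed the pairs of libraries. Rgs2 encodes a GTPase-activating protein that ends signaling through Gq, and Ptgs2 encodes cyclooxygenase 2. Rgs2 stood at 271, 186, 191 and 284 CPM in Sh + Flx, against 117, 129.98, 135 and 127 CPM in Sh. Sh + Flx replicates 1 and 4 were high, replicates 2 and 3 lay between them and Sh, and the groups did not overlap (log2 fold change 0.87, standard error 0.13, adjusted p = 9.55e-05). The change in Rgs2 was 1.18 (adjusted p = 0.000115) within replicates 1 and 4 and 0.50 (adjusted p = 0.196) within replicates 2 and 3. Ptgs2 had 43.3, 14.1, 16.7 and 40.5 CPM in Sh + Flx, against 11.4, 10.7, 10.8 and 11.5 CPM in Sh, with the same 2 libraries high (log2 fold change 1.36, standard error 0.25, adjusted p = 0.00187), and its change was 1.87 (adjusted p = 0.000111) within replicates 1 and 4 and 0.51 (adjusted p = 0.58) within replicates 2 and 3. The difference between the pairs was not tested.

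Immediate-early transcription factors gave a similar pattern, with 4 of 29 higher, none lower and a median of 0.08. Over all genes tested, 1.82% were higher and 0.797% lower. Fosb, an AP-1 subunit whose truncated form builds up with chronic stimulation, stood at 40.8, 26.1, 22.01 and 42.6 CPM in Sh + Flx, against 13.3, 17.2, 16.4 and 10.1 CPM in Sh (log2 fold change 1.20, standard error 0.24, adjusted p = 0.00319). Replicates 1 and 4 of Sh + Flx were again the high ones, and the change was 1.83 (adjusted p = 0.00245) within replicates 1 and 4 and 0.51 (adjusted p = 0.689) within replicates 2 and 3. Jun, the AP-1 partner of the Fos proteins, had 53.7, 46.2, 45.9 and 51.7 CPM in Sh + Flx, against 31.1, 36.9, 39.5 and 31.8 CPM in Sh (log2 fold change 0.50, standard error 0.098, adjusted p = 0.00298). On the log2 scale Ier5 rose by 0.54 (adjusted p = 0.000768) and Klf10 by 0.76 (adjusted p = 0.00195). The change in Klf10 was past the threshold within both pairs (adjusted p = 0.0163 and 0.0284). Jun changed by 0.75 (adjusted p = 0.00449) within replicates 1 and 4 and 0.27 (adjusted p = 0.611) within replicates 2 and 3, and Ier5 by 0.69 (adjusted p = 0.00918) within replicates 1 and 4 and 0.39 (adjusted p = 0.305) within replicates 2 and 3. The best-known members, Fos, Npas4 and Egr1, did not pass. Fos was at 16.8, 11.4, 11.6 and 16.8 CPM in Sh + Flx, against 4.91, 15.9, 16.6 and 6.96 CPM in Sh, with Sh replicates 2 and 3 as high as Sh + Flx. Arc, an activity gene of the effector list that is often read beside Fos, was at 37.8, 57.8, 54.2 and 35.4 CPM in Sh + Flx, against 27.2, 68.7, 65.7 and 29.8 CPM in Sh, with replicates 2 and 3 high in both groups. Npas4 was at 25.6, 9.60, 7.01 and 23.3 CPM in Sh + Flx, against 8.19, 10.9, 12.7 and 6.55 CPM in Sh, with replicates 1 and 4 high in Sh + Flx and low in Sh. Adjusted p was 0.766 for Fos, 0.961 for Arc, 0.389 for Npas4 and 0.649 for Egr1, whose libraries spanned 586 to 611 CPM in Sh + Flx and 544 to 786 CPM in Sh. With the paired libraries summed, Nptx2, Bdnf, Inhba, Nrn1 and Rgs2 still passed (adjusted p = 0.000134, 0.0229, 0.0199, 0.0237 and 0.0479) whereas the other 6 effector genes and the 4 transcription factors did not. The adjusted p was 0.074 for Nptx1, 0.133 for Ptgs2, 0.0878 for Grasp, 0.0826 for Lonrf3, 0.132 for Peg10, 0.375 for Vgf and 0.108 to 0.155 for the transcription factors.

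**Figure D2:**
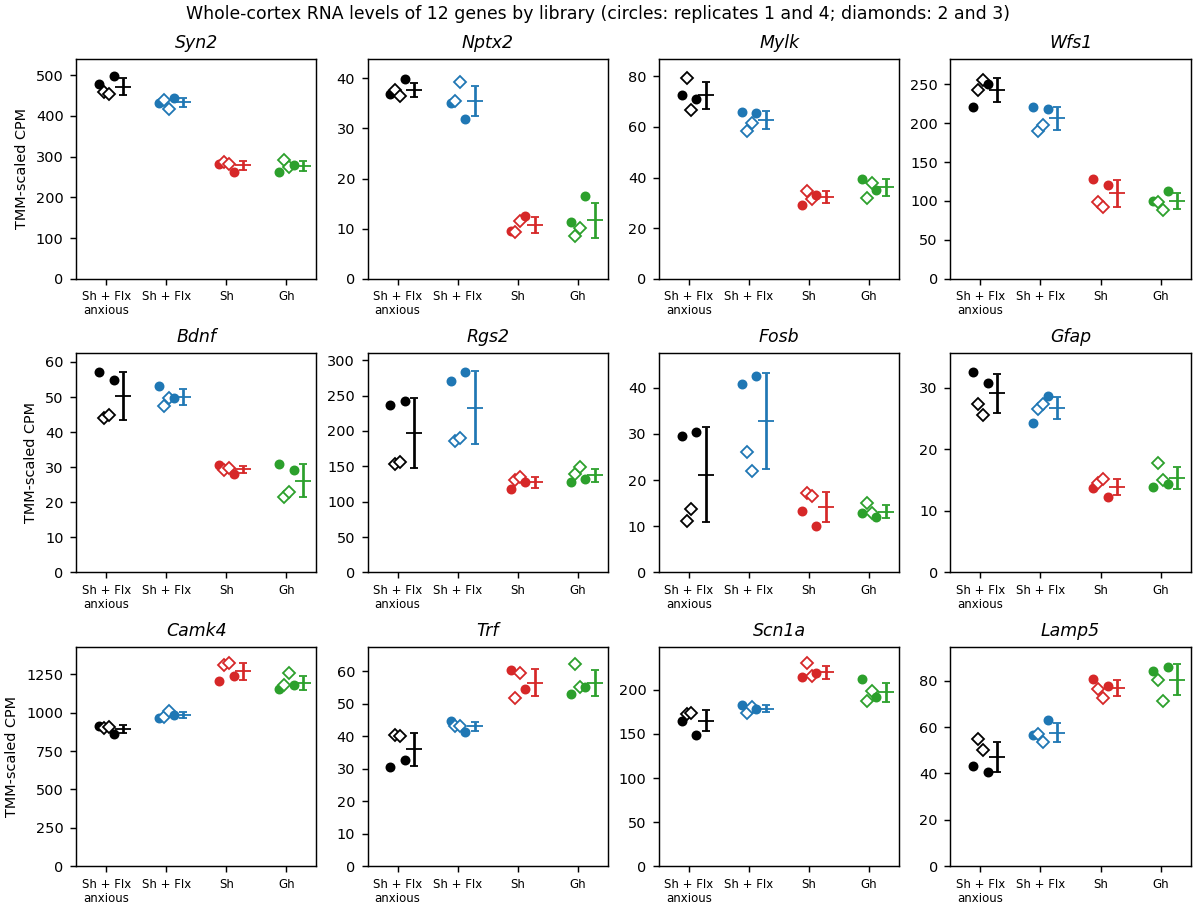
TMM-scaled CPM (y axis) of 12 genes in each input library of the 4 groups (x axis); circles are replicates 1 and 4, diamonds replicates 2 and 3, and the bars show the mean and SD of 4 libraries. The Sh + Flx libraries of Syn2 (418 to 445 CPM) lie clear of the Sh libraries (263 to 288 CPM), and those of Rgs2 and Fosb split into 2 high circles and 2 lower diamonds.

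The promoters of these activity genes were read from RefSeq (GRCm38.p6), from 250 bases before to 50 bases after each start, and searched on both strands for the cAMP response element TGACGTCA, its core TGACG (which lies within the full element) and the CArG box bound by serum response factor. Of the 15 members that rose in both lists, 9 matched the table, with 15 promoters. None of these held the full element and none a CArG box, against 1.79% and 1.63% of all 32851 promoters. The core was in 4 of the 15 (26.7%), against 20.8% of all promoters. A match of letters is not a site of binding. Only the 4 promoters that held the core are printed. Each is written 5′ to 3′ on the gene's own strand with the core, on either strand, in capitals.
Bdnf (chr2:109692186-109692485, plus strand): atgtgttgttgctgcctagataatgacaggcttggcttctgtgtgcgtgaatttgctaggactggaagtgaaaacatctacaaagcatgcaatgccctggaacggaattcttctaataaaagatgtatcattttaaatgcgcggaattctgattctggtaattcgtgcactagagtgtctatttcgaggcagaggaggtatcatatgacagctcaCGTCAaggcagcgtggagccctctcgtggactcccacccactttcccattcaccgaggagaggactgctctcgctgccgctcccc
Fosb (chr7:19309996-19310295, minus strand): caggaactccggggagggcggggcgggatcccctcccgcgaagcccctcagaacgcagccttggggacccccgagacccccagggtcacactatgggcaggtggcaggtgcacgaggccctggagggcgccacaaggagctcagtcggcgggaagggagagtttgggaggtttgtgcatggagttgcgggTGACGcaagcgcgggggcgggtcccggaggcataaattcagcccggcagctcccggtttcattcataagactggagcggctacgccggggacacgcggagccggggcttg
Ptgs2 (chr1:150099781-150100080, plus strand): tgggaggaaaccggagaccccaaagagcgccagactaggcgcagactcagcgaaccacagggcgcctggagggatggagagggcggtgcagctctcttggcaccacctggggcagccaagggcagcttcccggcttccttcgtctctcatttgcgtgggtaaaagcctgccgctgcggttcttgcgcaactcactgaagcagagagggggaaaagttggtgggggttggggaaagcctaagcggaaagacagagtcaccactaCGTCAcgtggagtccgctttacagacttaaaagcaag
Rgs2 (chr1:144004100-144004399, minus strand): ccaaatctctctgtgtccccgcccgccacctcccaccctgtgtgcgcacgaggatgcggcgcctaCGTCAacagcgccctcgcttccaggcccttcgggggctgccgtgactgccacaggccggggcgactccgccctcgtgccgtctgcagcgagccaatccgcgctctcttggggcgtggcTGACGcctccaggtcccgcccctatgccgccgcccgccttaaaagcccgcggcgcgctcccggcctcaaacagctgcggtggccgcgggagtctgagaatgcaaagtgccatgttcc
Rgs2 held the core at 2 places and the other genes at 1. Bdnf has several promoters, and the one shown is the one that held the core.

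The remaining higher genes of the 15 came from several classes. Wfs1, which encodes wolframin of the endoplasmic reticulum, stood at 221, 191, 197 and 218 CPM in Sh + Flx, against 129, 98.2, 92.4 and 121 CPM in Sh (log2 fold change 0.91, standard error 0.086, adjusted p = 9.85e-08). Wfs1 also marks field CA1 of the hippocampus, and in both groups replicates 1 and 4 lay above 2 and 3. It was higher in Sh + Flx within each pair, by 0.81 (adjusted p = 4.7e-05) within replicates 1 and 4 and 1.02 (adjusted p = 2.88e-06) within replicates 2 and 3. The calcium sensor gene Hpcal4 was at 1712, 1883, 1831 and 1703 CPM in Sh + Flx, against 1222, 1260.5, 1238 and 1209.5 CPM in Sh, among the highest levels of the named genes (log2 fold change 0.53, standard error 0.051, adjusted p = 1.11e-07). Kcnip3, whose product binds both Kv4 channels and DNA, had 209.5, 205, 218 and 211 CPM in Sh + Flx, against 139, 145, 151 and 151 CPM in Sh (log2 fold change 0.53, standard error 0.064, adjusted p = 6.63e-06). Mylk, the myosin light chain kinase best known from smooth muscle, was at 65.7, 58.6, 61.4 and 65.5 CPM in Sh + Flx, against 29.2, 34.8, 31.5 and 33.1 CPM in Sh. The groups did not overlap (log2 fold change 0.97, standard error 0.08, adjusted p = 9.16e-09). Of the 9 markers of mural cells, which include smooth muscle, edgeR called none and DESeq2 called Rgs5 and Tagln, and their log2 fold changes ran from -0.42 to 1.17. Their part in the change of Mylk was not tested.

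Bmp3, a ligand of the bone morphogenetic protein family, stood at 96.1, 85.8, 83.04 and 90.6 CPM in Sh + Flx, against 54.6, 58.6, 44.9 and 46.2 CPM in Sh (log2 fold change 0.80, standard error 0.085, adjusted p = 6.66e-07). Blnk, the B-cell linker adaptor, was low but regular at 15.5, 21.3, 17.5 and 16.6 CPM in Sh + Flx, against 7.10, 9.69, 7.34 and 5.30 CPM in Sh (log2 fold change 1.26, standard error 0.14, adjusted p = 1.8e-06). Plekha2, an adaptor that binds phosphoinositides, was measured at 28.9, 31.4, 35.4 and 28.99 CPM in Sh + Flx, against 16.9, 16.9, 18.2 and 16.7 CPM in Sh (log2 fold change 0.86, standard error 0.087, adjusted p = 3.1e-07). The others were the ubiquitin ligase gene Trim2 (log2 fold change 0.46, adjusted p = 1.57e-06), Trnp1, a nuclear regulator known from cortical progenitors (log2 fold change 0.69, adjusted p = 6.53e-07), the striatin-interacting Strip2 (log2 fold change 0.67, adjusted p = 6.66e-07) and Gfap. Each of the 15 higher genes passed in all 8 fits that left out 1 library, within each pair, and with the pairs summed (adjusted p 0.000134 to 0.0148). They had been chosen for a small p in these same libraries, so that these fits are no separate support. Exons of Mylk, Bmp3 and Plekha2 overlap another gene on the opposite strand.

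The lower genes changed less. Camk4, the calcium/calmodulin-dependent kinase that phosphorylates CREB in the nucleus, stood at 969, 973, 1012 and 988 CPM in Sh + Flx, against 1205, 1312, 1324 and 1242 CPM in Sh. The change was small (log2 fold change -0.37, standard error 0.044, adjusted p = 5.89e-06). Camk2n1, an inhibitor of calmodulin kinase II, was at 2501, 2612, 2871 and 2631 CPM in Sh + Flx, against 3090.2, 3205, 3391 and 3081 CPM in Sh (log2 fold change -0.27, standard error 0.046, adjusted p = 0.000777). Rassf3, a gene of the Ras-association domain family, had 25.3, 29.6, 30.9 and 25.8 CPM in Sh + Flx, against 43.9, 48.4, 47.6 and 41.8 CPM in Sh (log2 fold change -0.70, standard error 0.099, adjusted p = 5.23e-05), and the secreted Wnt inhibitor Frzb had 6.05, 7.29, 6.02 and 4.61 CPM in Sh + Flx, against 12.9, 9.59, 12.1 and 12.8 CPM in Sh (log2 fold change -0.97, standard error 0.15, adjusted p = 0.000281). AI593442, which the files name by a sequence identifier, was measured at 591, 611, 634 and 598 CPM in Sh + Flx, against 842, 861, 875 and 979.8 CPM in Sh (log2 fold change -0.55, standard error 0.069, adjusted p = 1.05e-05).

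Genes of excitability and secretion were also among them. Scn1a, the sodium channel Nav1.1 of fast-spiking interneurons, stood at 183, 173, 180.3 and 179 CPM in Sh + Flx, against 215, 231, 215 and 219 CPM in Sh (log2 fold change -0.30, standard error 0.056, adjusted p = 0.00223). Kcnip2, a subunit of Kv4 potassium channels, had 57.1, 68.1, 65.1 and 57.1 CPM in Sh + Flx, against 79.3, 91.4, 87.9 and 76.7 CPM in Sh (log2 fold change -0.44, standard error 0.078, adjusted p = 0.001). Its relative Kcnip3 rose. Cadps2, which primes dense-core vesicles, also fell (log2 fold change -0.34, adjusted p = 0.00187). Other log2 fold changes were -0.36 (adjusted p = 0.000851) for Tbc1d30, a Rab GTPase-activating protein, -0.34 (adjusted p = 0.000851) for Nudt4, an inositol pyrophosphate phosphatase, -0.32 (adjusted p = 0.00094) for the ubiquitin ligase gene Hecw2, -0.53 (adjusted p = 0.0007) for Igfn1 and -0.67 (adjusted p = 0.00226) for Cd34, which marks endothelium and blood progenitors. Each of the 15 lower genes, also chosen for a small p in these same libraries, passed in all 8 fits without 1 library. With the pairs summed only Camk4, AI593442, Rassf3 and Frzb did (adjusted p = 0.0224, 0.0175, 0.0148 and 0.0395). Exons of Camk4, AI593442 and Cd34 overlap another gene on the opposite strand.

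Genes of calcium and Gq signaling changed in both directions, and the genes of cAMP signaling that passed rose. Over all genes tested, 1.82% rose and 0.797% fell. Of 28 genes of calcium and calmodulin signaling, 2 rose and 3 fell, with a median of -0.02. Camk2d (log2 fold change 0.26, adjusted p = 0.00611) and the kinase kinase Camkk1 (log2 fold change 0.35, adjusted p = 0.0207) rose, while Camk4, the second kinase kinase Camkk2 (log2 fold change -0.25, adjusted p = 0.0309) and the calcium pump gene Atp2b2 (log2 fold change -0.27, adjusted p = 0.0235) fell. Of 29 genes of Gq, phospholipase C and RGS proteins, Rgs2, Prkce (log2 fold change 0.19, adjusted p = 0.0141) and Rgs17 (log2 fold change 0.23, adjusted p = 0.041) rose and Prkca (log2 fold change -0.20, adjusted p = 0.009) fell. Rgs13, a further RGS gene chosen after its values were seen, had 2.97, 3.11, 3.18 and 2.98 CPM in Sh + Flx, against 0.741, 1.27, 0.443 and 0.623 CPM in Sh (log2 fold change 1.96, standard error 0.30, adjusted p = 0.000211). Of 34 genes of cAMP and CREB signaling 4 rose and none fell. These were the phosphodiesterase genes Pde1a (log2 fold change 0.40, adjusted p = 0.000509) and Pde2a (log2 fold change 0.27, adjusted p = 0.00922), the regulatory subunit gene of protein kinase A Prkar1b (log2 fold change 0.29, adjusted p = 0.0112) and Rapgef4, which encodes Epac2 (log2 fold change 0.23, adjusted p = 0.0301). The MAP kinase phosphatase genes Dusp18 (log2 fold change 0.45, adjusted p = 0.000478) and Dusp4 (log2 fold change 0.77, adjusted p = 0.0238) were the 2 of 12 that rose. Of these genes, Rgs2, Rgs13, Camk4, Camk2d, Pde1a and Dusp18 kept the call in all 8 fits without 1 library. The others lost it in 1 to 7 of the 8, with adjusted p up to 0.162.

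Transmitter receptors and channels were described by class, beside 1.82% higher and 0.797% lower over all genes tested. None of 14 AMPA and kainate receptor genes and none of 13 NMDA and metabotropic glutamate receptor genes passed, with medians of -0.07 and -0.02. At an unadjusted p under 0.05 these were 3 and 5 genes, and DESeq2 called Grik2, Grik5 and Grm3. Of 18 genes of GABA receptors and synthesis, Gad2, which encodes the synaptic form of glutamate decarboxylase, rose. Gad2 stood at 1022, 968, 966 and 1059.8 CPM in Sh + Flx, against 775, 794, 785 and 779.6 CPM in Sh (log2 fold change 0.36, standard error 0.044, adjusted p = 6.83e-06), with no overlap and a call within both pairs. Of 30 potassium and HCN channel genes, Kcna6 (log2 fold change 0.27, adjusted p = 0.0253) and Kcnh1 (log2 fold change 0.31, adjusted p = 0.0182) rose and Kcnh5 (log2 fold change -0.36, adjusted p = 0.00598) fell, of which Kcnh5 kept the call in all 8 fits. Scn1a was the only 1 of 23 calcium and sodium channel genes that passed. Hapln4, a link protein of perineuronal nets, stood at 109, 109.5, 111 and 108 CPM in Sh + Flx, against 77.1, 69.6, 76.7 and 82.8 CPM in Sh (log2 fold change 0.52, standard error 0.066, adjusted p = 1.45e-05), the only 1 of 22 genes of that matrix that passed.

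Serotonin genes and S100a10 were not among the changed genes. None of 18 genes of serotonin receptors, transport and metabolism passed in edgeR or DESeq2 and none had an unadjusted p under 0.05, with a median of -0.03. Htr2a, the receptor through which serotonin excites cortical neurons, stood at 23.8, 24.1, 22.3 and 22.2 CPM in Sh + Flx, against 21.9, 20.6, 26.04 and 22.1 CPM in Sh, a log2 fold change of 0.03 with a 95% interval from -0.17 to 0.23 and an adjusted p of 0.948 from edgeR. Htr1a, the inhibitory receptor, was at 21.5, 15.2, 15.99 and 16.1 CPM in Sh + Flx, against 19.5, 20.7, 18.7 and 19.9 CPM in Sh. Sh + Flx replicate 1 lay above all Sh libraries and the other 3 below them, with an interval of the log2 fold change from -0.44 to 0.04 (adjusted p = 0.525). Htr4 was measured at 2.36, 3.20, 2.49 and 3.61 CPM in Sh + Flx, against 2.54, 3.36, 1.41 and 3.58 CPM in Sh, with a wide interval from -0.52 to 0.73. The serotonin transporter gene Slc6a4, which is expressed by raphe neurons, had 0, 3, 0 and 7 counts in Sh + Flx and 1, 0, 0 and 0 in Sh, too few to test. S100a10 had a log2 fold change of 0.13 (interval -0.22 to 0.48, adjusted p = 0.838), and none of the 8 genes of S100a10 and its binding partners passed in either tool, nor at an unadjusted p under 0.05. Erbb4, a neuregulin receptor of interneurons, was at 38.2, 42.4, 41.4 and 45.5 CPM in Sh + Flx, against 42.6, 47.2, 46.4 and 41.5 CPM in Sh (interval -0.26 to 0.09, adjusted p = 0.766), and none of 15 ErbB receptor and neuregulin genes passed in either tool, nor at an unadjusted p under 0.05. The median log2 fold change of the called genes was 0.37 for the higher and -0.35 for the lower. The interval of Htr4 holds both values, that of S100a10 the first and that of Htr1a the second. Those of Htr2a and Erbb4 hold neither. The intervals treat the 4 libraries of a group as separate pools, which could not be settled, and the medians are those of genes chosen for passing. Larger changes are therefore not excluded. Among 19 receptor genes of dopamine, noradrenaline and acetylcholine, Drd4 passed with 9, 15, 11 and 6 counts in Sh + Flx, against 0, 0, 1 and 0 in Sh (adjusted p = 0.00422). No fold is given for so few counts.

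Neuropeptides, growth factors, glucocorticoid-induced genes and clock genes each held some of the called genes, against 1.82% higher and 0.797% lower over all genes tested. Of 33 neuropeptide and receptor genes, Npy rose, with 32.8, 29.4, 29.5 and 32.8 CPM in Sh + Flx, against 23.1, 20.9, 19.1 and 24.4 CPM in Sh (log2 fold change 0.51, standard error 0.10, adjusted p = 0.00363). Cck (log2 fold change 0.26, adjusted p = 0.0377) and the PACAP receptor gene Adcyap1r1 (log2 fold change 0.32, adjusted p = 0.0397) also rose, and the Y1 receptor gene Npy1r (log2 fold change -0.33, adjusted p = 0.0405) fell, but these 3 lost the call in 7 of 8 fits without 1 library (adjusted p up to 0.159). Of 12 neurotrophin and Trk genes, Bdnf rose and Igf2, an insulin-like growth factor that meningeal cells also make, fell. Of 20 glucocorticoid receptor and induced genes, Cdkn1a (log2 fold change 0.84, adjusted p = 0.00498), Fkbp5 (log2 fold change 0.47, adjusted p = 0.0238) and Errfi1 (log2 fold change 0.35, adjusted p = 0.0238) rose, of which only Cdkn1a kept the call in all 8 fits. Cdkn1a, a cell cycle inhibitor that stress signals induce, stood at 22.9, 32.3, 39.8 and 22.7 CPM in Sh + Flx, against 13.96, 14.9, 16.6 and 20.6 CPM in Sh, with replicates 2 and 3 of Sh + Flx highest. Of 17 clock genes 3 fell, all of them transcription factors: Hlf (log2 fold change -0.29, adjusted p = 0.00249), Rorb (log2 fold change -0.22, adjusted p = 0.013) and Nr1d2 (log2 fold change -0.28, adjusted p = 0.0302). Hlf was at 649, 688, 684 and 662 CPM in Sh + Flx, against 793, 832, 853 and 793 CPM in Sh. It kept the call in all 8 fits, while the others lost it in 3 and 6 of them (adjusted p up to 0.0676 and 0.146).

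Lists of stress responses and of housekeeping functions gave single calls or none, against 1.82% higher and 0.797% lower over all genes tested. Single members passed in the lists of the Atf4 stress response (Asns, log2 fold change 0.34, adjusted p = 0.00947, with 16 of 21 members above 0 and a list median of 0.21), endoplasmic reticulum chaperones (Dnajb9, log2 fold change -0.32, adjusted p = 0.0496), heat shock proteins (Hsph1, log2 fold change 0.24, adjusted p = 0.0203), lysosomal proteins (Gpnmb, log2 fold change 1.34, adjusted p = 0.0256) and oxidative phosphorylation (Sdha, log2 fold change 0.20, adjusted p = 0.0471), and each of these lost the call in at least 2 of the 8 fits without 1 library. No member passed among 26 cholesterol genes, 16 interferon-stimulated genes, 77 cytosolic ribosomal protein genes, 31 proteasome genes and 13 nuclear long noncoding RNAs. The medians were 0.01, 0.17, -0.04, 0.08 and -0.19 in that order. Of the proteasome genes 28 of 31 were above 0. At an unadjusted p under 0.05 the lists held 1, 0, 5, 2 and 8 genes, and DESeq2 called Rpl10a, Peg13 and Airn. Rpl10a is also the gene of the ribosomal protein that the transgene carries.

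**Figure D3:**
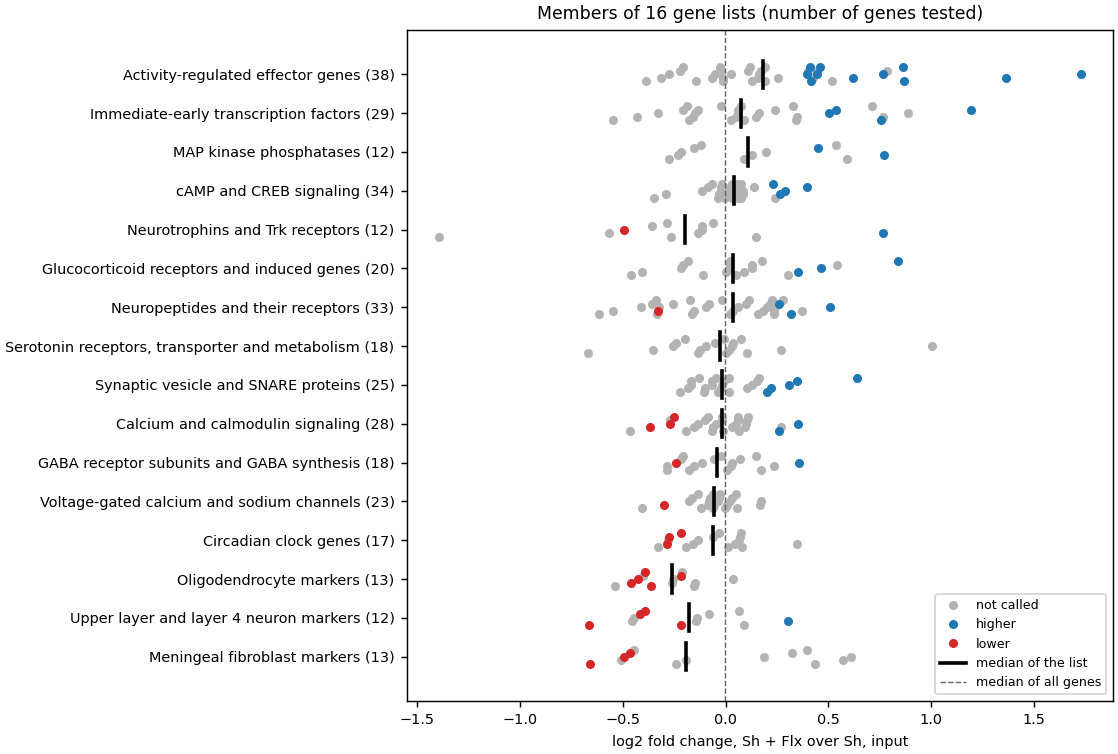
Log2 fold change of Sh + Flx over Sh in input (x axis) for the tested members of 16 gene lists (rows, with the number of genes tested); blue members were higher, red lower and gray not called, thick bars mark each list's median and the dashed line the median of all genes. Among the 16 lists shown, the activity-regulated effector genes (median 0.18) lie farthest to the right and the oligodendrocyte markers (median -0.26) farthest to the left. Of the lists not shown, the Atf4 stress response had a median of 0.21 and the choroid plexus and ependyma markers one of -0.30.

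Markers of oligodendrocytes, the cells that make myelin, were among the lower genes. Of 13 markers 5 fell and none rose, against 0.797% and 1.82% of all genes tested. Of the 13 markers 12 were below 0, and the median was -0.26, against -0.0035 for all genes. Trf, the transferrin gene, had 44.8, 43.1, 43.1 and 41.4 CPM in Sh + Flx, against 60.3, 51.8, 59.6 and 54.5 CPM in Sh (log2 fold change -0.39, standard error 0.086, adjusted p = 0.00813), and Mal, a proteolipid of myelin, had 123, 113, 116 and 124 CPM in Sh + Flx, against 156, 146, 140.5 and 171 CPM in Sh (log2 fold change -0.36, standard error 0.08, adjusted p = 0.00864). Both separated the groups and kept the call in all 8 fits without 1 library. Aspa (log2 fold change -0.43, adjusted p = 0.0106) and Cnp (log2 fold change -0.22, adjusted p = 0.0292) also fell but lost the call in 1 and 6 of the 8 fits (adjusted p up to 0.0594 and 0.112). Mbp and Mog had log2 fold changes of -0.15 (adjusted p = 0.22) and -0.40 (adjusted p = 0.0875), and Mobp, the only marker above 0, of 0.03 (adjusted p = 0.927). The markers summed to 1712 to 1771 CPM in Sh + Flx and 2051 to 2405 CPM in Sh, without overlap. This was not particular to oligodendrocytes. The sums did not overlap either for interneurons (1993 to 2099 CPM in Sh + Flx, 1755 to 1875 in Sh), thalamic neurons (464 to 497 and 499 to 530) and further lists. They did overlap for astrocytes and layer 5 neurons, among others. Gad2 made up a large part of the interneuron sum, with means of 1004 CPM in Sh + Flx and 783 CPM in Sh. Of the 16 interneuron markers 8 were above 0 and 8 below, with a median of -0.05. Gjc3, a connexin gene of myelinating glia outside the list, fell as well (log2 fold change -0.40, adjusted p = 0.00187). None of these 5 genes that fell passed with the pairs summed (adjusted p 0.124 to 0.397). No marker of oligodendrocyte precursors passed (8 tested, median -0.01), 3 of them at an unadjusted p under 0.05 and none in DESeq2.

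Astrocyte markers did not move together. Gfap, the intermediate filament that astrocytes raise when reactive, stood at 24.3, 26.6, 27.4 and 28.7 CPM in Sh + Flx, against 13.7, 14.6, 15.2 and 12.2 CPM in Sh. Its 4 Sh + Flx libraries lay well above the Sh libraries (log2 fold change 0.93, standard error 0.10, adjusted p = 1.57e-06). It was the only 1 of 13 astrocyte markers that passed, and the median was -0.11. The summed level was 3142 to 4056 CPM in Sh + Flx and 3192 to 4767 CPM in Sh, with replicates 1 and 4 high in both groups. None of 12 microglial, 11 endothelial and 9 mural cell markers passed (medians -0.26, -0.01 and 0.01). At an unadjusted p under 0.05 these were 2, 1 and 2 genes, and DESeq2 called the mural genes Rgs5 and Tagln. The microglial markers summed to 65.7 to 78.1 CPM in Sh + Flx and 78.1 to 93.4 CPM in Sh.

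Neuronal markers moved in part, while 1.82% of all genes tested rose and 0.797% fell. Of 16 interneuron markers, Gad2, Npy and Cck rose and Adarb2 (log2 fold change -0.39, adjusted p = 0.0056) and Lamp5 (log2 fold change -0.41, adjusted p = 0.0034) fell. Lamp5 stood at 56.5, 57.1, 53.6 and 63.2 CPM in Sh + Flx, against 80.6, 76.5, 72.3 and 77.5 CPM in Sh, without overlap. It is also one of 12 markers of upper layers and layer 4, of which 4 fell and 1 rose, with a median of -0.18 and a summed level of 1409 to 1496 CPM in Sh + Flx and 1562 to 1629.7 CPM in Sh. The others that fell were Rspo1, a secreted activator of Wnt signaling (log2 fold change -0.67, adjusted p = 0.00344), Rorb of layer 4 and Enpp2 (log2 fold change -0.39, adjusted p = 0.0163), whose call was lost in 2 of the 8 fits without 1 library (adjusted p up to 0.0678). Cux2, a transcription factor of the upper layers, was the one that rose (log2 fold change 0.31, adjusted p = 0.0278), and it lost the call in 6 of 8 fits without 1 library (adjusted p up to 0.119). None of 13 markers of layer 5 projection neurons passed (median -0.04), 4 of them at an unadjusted p under 0.05 and none in DESeq2. Of 11 layer 6 and subplate markers Syt6 rose (log2 fold change 0.30, adjusted p = 0.0487), a call lost in each of the 8 fits (adjusted p 0.0617 to 0.151). Ppp1r1b, which encodes DARPP-32, was the only 1 of 12 markers of striatal neurons that passed, at 116, 119, 120.4 and 115 CPM in Sh + Flx, against 96.5, 90.5, 98.8 and 91.9 CPM in Sh (log2 fold change 0.32, standard error 0.057, adjusted p = 0.00117), and the list's median was -0.05. Wfs1 was likewise the only 1 of 9 hippocampal markers, with a list median of -0.15, and none of 9 thalamic markers passed.

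Tissue next to the cortex differed between libraries. Over all genes tested, 1.82% rose and 0.797% fell. Of 13 meningeal fibroblast markers, Ptgds (log2 fold change -0.47, adjusted p = 0.00397), Igf2 (log2 fold change -0.50, adjusted p = 0.0248) and Slc13a4 (log2 fold change -0.66, adjusted p = 0.0305) fell, of which Igf2 and Slc13a4 lost the call in 5 of the 8 fits without 1 library (adjusted p up to 0.13 and 0.123). Igf2 stood at 46.4, 68.9, 66.9 and 47.03 CPM in Sh + Flx, against 80.9, 80.9, 93.5 and 68.1 CPM in Sh, with Sh + Flx replicates 1 and 4 lowest, and its change was -0.67 (adjusted p = 0.0269) within replicates 1 and 4 and -0.36 (adjusted p = 0.426) within replicates 2 and 3. The summed level of the list was 161 to 213 CPM in Sh + Flx and 233 to 249 CPM in Sh. The 6 markers of choroid plexus and ependyma tested summed to 50.8 and 54.5 CPM in Sh + Flx replicates 1 and 4, 98.9 and 91.03 CPM in replicates 2 and 3, and 87.99 to 112 CPM in Sh, and none passed. Pomc, the precursor of ACTH made in the pituitary, was at 0.29, 0.244, 0.43 and 0.42 CPM in Sh + Flx, against 7.996, 0.514, 0.161 and 7.17 CPM in Sh. It was high in the same 2 Sh libraries that held growth hormone and prolactin, and its call (adjusted p = 0.00738) was lost without those 2 (log2 fold change -0.00087, adjusted p = 1). Chga, a granin of dense-core vesicles, listed with the pituitary but also expressed by neurons, rose (log2 fold change 0.64, standard error 0.093, adjusted p = 8.28e-05) and passed without those 2 libraries (adjusted p = 0.000589). The part that these tissues and cell types have in the other changes was not tested. Syn2, Nptx2, Bdnf and Camk4 changed by 0.61, 1.77, 0.77 and -0.42 on the log2 scale without Sh replicates 1 and 4, against 0.64, 1.73, 0.77 and -0.37 with them.

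**Figure D4:**
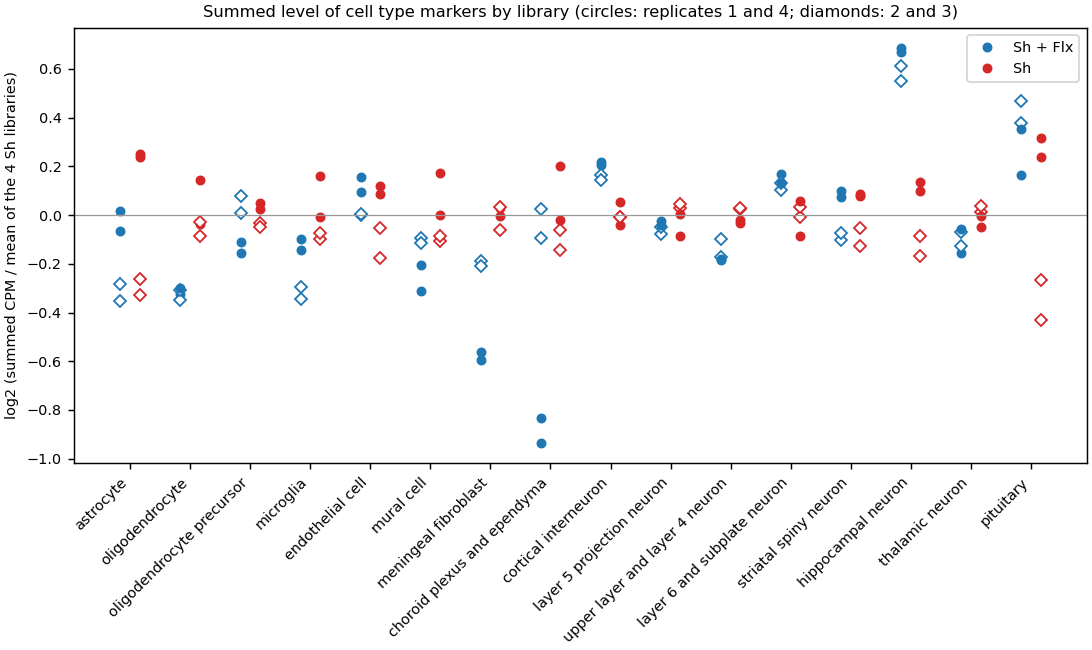
Log2 of the summed CPM of each marker list (x axis) relative to the mean of the 4 Sh libraries (y axis), by library; blue is Sh + Flx, red is Sh, circles are replicates 1 and 4 and diamonds replicates 2 and 3. The oligodendrocyte markers of Sh + Flx (1712 to 1771 CPM) lie below those of Sh (2051 to 2405 CPM), and the hippocampal sum is carried by Wfs1. Several other lists also separate the groups, such as the interneuron markers, of whose sum Gad2 makes up a large part.

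The Sh + Flx anxious mice received the same treatment and were set against the same 4 Sh libraries, so that this comparison is not independent of the one above. Against Sh, 625 genes (3.98%) were higher and 451 (2.87%) lower in Sh + Flx anxious. The direct comparison of the treated groups, which does not use the Sh libraries, gave 8 genes higher and 12 lower in Sh + Flx anxious than in Sh + Flx (0.127% of the genes tested in all). None of the 30 genes named by their p was among these 20. Nptx2 averaged 37.7 ± 1.48 CPM in Sh + Flx anxious, 35.4 ± 3.02 in Sh + Flx and 10.8 ± 1.53 in Sh (SD, n = 4 each). Kcnip3, with 254 ± 19.1, 211 ± 5.35 and 146 ± 5.71 CPM in Sh + Flx anxious, Sh + Flx and Sh, had the smallest p of the 30 in that comparison (0.27 on the log2 scale, adjusted p = 0.0834 from edgeR). Of the oligodendrocyte markers described above, Cnp and Mobp were lower in Sh + Flx anxious than in Sh + Flx, with log2 differences of -0.29 (adjusted p = 0.0247) and -0.58 (adjusted p = 0.00146). Isolation itself gave few calls in whole cortex, with 13 genes (0.0829%) different between Sh and Gh, and none of the 30 named genes differed there. Syn2 averaged 278 ± 10.9 CPM in Sh and 277 ± 11.9 CPM in Gh, and Bdnf 29.4 ± 1.09 and 26.1 ± 4.68 CPM (SD, n = 4 each).

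The same contrast in TRAP mRNA of S100a10 cells was set beside the input values. In Sh TRAP replicates 2 and 3, 50.3% and 58.6% of the counts lay outside genes, against 25.2% to 39.8% in the other 14 TRAP libraries. With these 2 libraries, the change in TRAP differed from that in input for 10 genes (0.0619% of 16158), and without them for 337 (2.02% of 16690). The TRAP values that follow leave them out and rest on 4 libraries against 2, Sh replicates 1 and 4, whose input libraries were a like pair. Of the 286 genes higher in input, 121 were higher in TRAP, where 8.03% of genes were, and 2 were lower. Of the 125 lower in input, 40 were lower in TRAP, where 6.87% of genes were, and 1 was higher. Nptx2 rose in TRAP by 1.96 on the log2 scale (adjusted p = 0.00012), against 1.73 in input, and Syn2 by 0.61 (adjusted p = 0.000937), against 0.64. Bdnf rose more in TRAP (1.40) than in input (0.77), and the difference of 0.63 passed (adjusted p = 0.0302), but not with all 4 Sh TRAP libraries (0.36, adjusted p = 0.318). Mylk and Rimbp2 changed by -0.12 and 0.18 in TRAP, with differences from input of -1.08 (adjusted p = 0.00076) and -0.62 (adjusted p = 0.0254). With all 4 Sh TRAP libraries these differences did not pass (adjusted p = 0.254 and 0.0873). Rgs13 had 27, 64, 155 and 134 counts in the Sh + Flx TRAP libraries, against 1, 0, 1 and 0 in Sh TRAP, and the difference from its change in input passed with all libraries (adjusted p = 0.0483). Whether input and TRAP libraries of the same group and number came from the same mice was not given in the sources used here. With each such couple as a block no gene passed with all libraries (2428 of 16158 had an unadjusted p under 0.05) and 9 passed without Sh TRAP replicates 2 and 3. Mylk was one of them (adjusted p = 0.0234), and Bdnf, Rimbp2 and Rgs13 were not (adjusted p = 0.182, 0.155 and 0.143).

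**Figure D5:**
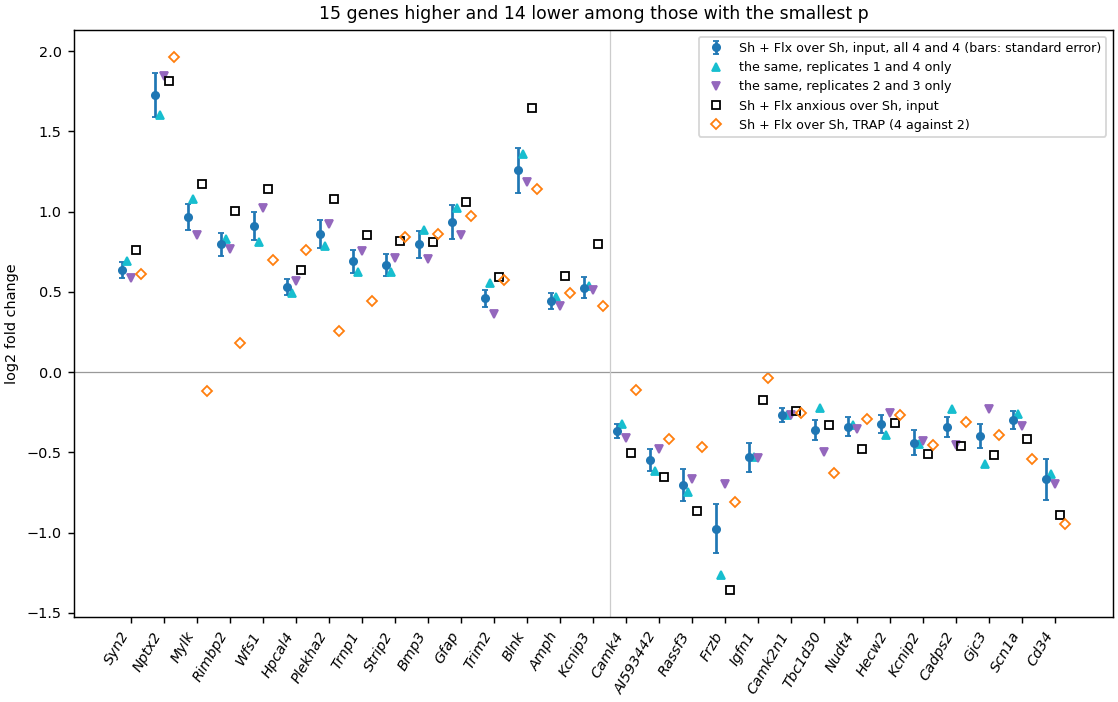
Log2 fold changes (y axis) of the 15 higher genes and 14 of the 15 lower genes with the smallest p (x axis) in input with all libraries, within replicates 1 and 4, within replicates 2 and 3, in Sh + Flx anxious over Sh, and in TRAP without Sh TRAP replicates 2 and 3; bars are standard errors of the first. The 29 genes shown were chosen for libraries that did not overlap, which fixes the sign of the values within both pairs. Mylk is below 0 in TRAP (-0.12).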

How the data were processed

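Total RNA of whole cortex (input) and mRNA bound to tagged ribosomes (TRAP) were sequenced in 4 groups of 4 libraries, each from a pool of 3 mice. The authors amplified RNA with the unstranded Ovation RNA-Seq V2 kit, made TruSeq v2 libraries, sequenced 75-bp paired ends on a NextSeq 500 and aligned them with TopHat2 2.0.11 to mm10 (GRCm38), per the labels and the submitters' processing notes. The deposited values are raw counts of reads per gene. Which program counted the reads, and with which strand setting, is not given in the labels or methods read here. The 5 lines of each table that name no gene (47.8% to 50.1% of the counts outside features in Sh + Flx and 48.1% to 55.2% in Sh) were left out, which left 24062 genes, 22550 of them matched to RefSeq symbols. The 6 deposited comparison tables hold mean FPKM, fold changes and p-values of the authors' own comparisons and were not used.

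Counts of the 16 input libraries were fitted together with edgeR 4.0.16 in R 4.3.3 (TMM factors, filterByExpr by group, quasi-likelihood test, Benjamini-Hochberg adjustment, threshold 0.05), and counts of both fractions of Sh + Flx and Sh in a second fit for the difference of the changes. All values called CPM are counts scaled to the TMM-adjusted total of each library. The median biological coefficient of variation was 0.119. The code was checked on counts simulated with edgeR's estimates of the spread. There 5.44% of edgeR's calls and 13% of DESeq2's calls were of genes left unchanged. Groups came from the labels.

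The genes named were the 15 higher and the 15 lower with the smallest p whose libraries did not overlap, predicted gene models passed over, from each list at most 6 members, taken by p, and S100a10, Htr1a, Htr2a, Htr4, Erbb4 and Slc6a4. Members of a list beyond these 6, Rgs13, Fos, Arc, Egr1, Npas4, Mbp, Mog, Mobp and the hormone genes were chosen after their values were seen. A few genes that the rule or the lists name are not reported here, although counts, medians and sums over genes include them. The comparison, the gene lists and the markers were chosen with earlier results of these data known. Alternatives were DESeq2 1.42.0, RLE size factors, no filter, a CPM of at least 1 in at least 4 libraries, the 8 libraries alone, the replicate number as a block, replicates 1 and 4 against 2 and 3 as a block, these pairs summed, and each library left out. Fits with only 1 pair of the Sh + Flx and Sh libraries, which kept the other input groups whole, were added after seeing the data. So were fits without Sh replicates 1 and 4. Fits of TRAP minus input with a replicate block without Sh TRAP replicates 2 and 3 were also added then, as were those with input and TRAP of the same group and number as a block. Values in parentheses named log2 fold change are Sh + Flx over Sh.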

Additional observations from a re-analysis of the deposited data

Results flagged for a closer look

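Of the genes named, 7 changed differently in TRAP and input by a test of the difference without Sh TRAP replicates 2 and 3 (edgeR, 4 libraries against 2 in TRAP). The change was more positive in input for Mylk, with a difference of -1.08 on the log2 scale (adjusted p = 0.00076), Fkbp5, with -1.10 (adjusted p = 0.00076), Erbb4, with -0.78 (adjusted p = 0.0424), and Rimbp2, with -0.62 (adjusted p = 0.0254). The change was more positive in TRAP for Aspa, with 0.71 (adjusted p = 0.013), and Bdnf, with 0.63 (adjusted p = 0.0302). Erbb4 did not pass in input, and Aspa fell there. With all 4 Sh TRAP libraries none of these 6 differences passed (adjusted p = 0.676 for Fkbp5, 0.318 for Bdnf, 0.254 for Mylk, 0.0873 for Rimbp2 and 0.0792 for Erbb4 and Aspa). With input and TRAP of the same group and number as a block, and without Sh TRAP replicates 2 and 3, Mylk and Fkbp5 passed (adjusted p = 0.0234 for both). The other gene was Rgs13, with a difference of 4.59 (adjusted p = 0.0224) and, with all libraries, 4.32 (adjusted p = 0.0483, lost with the block), a fitted value that depends on the prior count because the Sh TRAP libraries held at most 1 read of it. Between the treated groups in input, Cnp differed by -0.29 (adjusted p = 0.0247) and Mobp by -0.58 (adjusted p = 0.00146), Sh + Flx anxious minus Sh + Flx.

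In 10 of the 224 sets of 4 libraries looked at, 1 library lay far from the other 3 by Dixon's test, where chance gives about 1 in 20. In Sh + Flx these were Htr1a in replicate 1 (21.5 CPM, nearest library 16.1), Inhba in replicate 2 (58.3 CPM, nearest 67.7), Lonrf3 in replicate 1 (39.4 CPM, nearest 42.8) and Rgs17 in replicate 2 (577 CPM, nearest 657). In Sh, replicate 3 was apart for Plekha2 (18.2 CPM, nearest 16.9), Cd34 (22.6 CPM, nearest 19.2), Gpnmb (1.29 CPM, nearest 2.18), Asns (41.9 CPM, nearest 47.3) and Drd4 (0.0403 CPM, which is 1 read, with 0 in the others), and replicate 4 for Cux2 (30.8 CPM, nearest 34.8). Plekha2, Inhba, Lonrf3 and Cd34 kept their calls in each of the 8 fits without 1 library, whereas Rgs17, Gpnmb, Asns and Cux2 lost them in 2 to 7 of these fits.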

How the results depend on the processing

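The 286 higher and 125 lower genes became 189 to 228 and 58 to 106 when 1 library was left out, 55 and 4 with replicates 1 and 4 summed and 2 and 3 summed, 83 and 32 with replicates 1 and 4 only, 61 and 10 with replicates 2 and 3 only, and 141 and 60 without Sh replicates 1 and 4. In each of these fits fewer samples entered than in the whole comparison. Fewest genes were lower without Sh + Flx replicate 1 (58), Sh replicate 2 (73) and Sh replicate 3 (80), and fewest were higher without Sh + Flx replicate 3 (189). DESeq2 gave 384 higher and 217 lower genes, and the 8 libraries alone gave 383 and 229; the cause was not tested. Same-numbered libraries of the 2 groups did not deviate together (r -0.00713 to 0.0248). With the replicate number as a block 257 and 111 genes passed, so that the pairing by number moved neither count by over 1.5 times, and 94 of the 100 named genes that passed kept their call. Other size factors and filters left 286 to 299 higher and 129 to 142 lower. Of the 100 named genes that passed, 63 passed in all 8 fits without 1 library and 37 lost the call in at least 1. Where the libraries of a gene did not overlap, fits with fewer libraries could hardly change its sign. No named gene that passed changed sign under any alternative run. Genes named without a call did: Htr2a (-0.016 to 0.10 without 1 library, -0.0077 with replicates 2 and 3 only, -0.011 without Sh 1 and 4), Htr4 (-0.11 to 0.25 without 1 library, -0.033 with replicates 1 and 4 only), Fos (-0.49 with 2 and 3 only, -0.20 without Sh 1 and 4), Arc (-0.25 to 0.18 without 1 library, 0.36 with 1 and 4 only), Egr1 (0.14 with 1 and 4 only), Npas4 (-0.49 with 2 and 3 only) and Mobp (-0.030 to 0.087 without 1 library, -0.16 with 2 and 3 only, -0.011 without Sh 1 and 4). The 10 genes whose change differed between TRAP and input became 337 without Sh TRAP replicates 2 and 3, and 0 with the replicate block, where 2462 of 16158 genes had an unadjusted p under 0.05 (edgeR). Without these 2 libraries 247 passed with the replicate block. With TRAP and input of the same group and number as a block it was 0 with all libraries and 9 without the 2. The number of separate pools behind the libraries, genes on opposite strands that share exons, and depth for genes of few counts limit these values.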
